A study of Mus musculus with 9 samples.

Results

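The genes described here encode parts of the lysosome and of the vacuolar H+-ATPase (V-ATPase), the proton pump that acidifies it. A fixed list of 38 gene symbols was looked up among the 55274 gene identifiers of the expression tables, and all 38 were found. They comprised 16 genes for the pump (6 of its membrane sector V0, 8 of its cytosolic sector V1 and 2 accessory proteins), 15 for hydrolases and their lumenal cofactors, and 7 for proteins of the lysosomal membrane. Each of the 38 lay at or above 1 FPKM in every library, so all of them entered the tests. FPKM (fragments mapped to a gene, corrected for its length and for the depth of the library) is a level, and log2 fold changes below are differences of group means of log2(FPKM + 1).

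RNA was sequenced from bone marrow cells of female C57BL/6J mice, 6 to 8 weeks old, that had received 150 mg/kg of 5-fluorouracil, which depletes cycling cells, 4 days before harvest, after retroviral transduction with NRASG12D (an activated NRAS, on a vector with a blue fluorescent protein), with NUP98-NSD1 (a fusion oncogene of acute myeloid leukemia, on a vector with a green fluorescent protein), or with both. Before transduction, the harvested cells were stimulated for 48 h with interleukin-6, interleukin-3 and stem cell factor. The transduced cells were sorted for the fluorescent proteins and expanded with the same 3 cytokines. Each of the 3 groups, NRASG12D, NUP98-NSD1 and NUP98-NSD1+NRASG12D, had 3 libraries, and none carried an empty vector. The sources used here do not say whether replicates came from separate mice or transductions, so p-values measure the spread between these libraries, which may be technical.

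Nras read 348 to 479 FPKM in the NRASG12D libraries, 47.7 to 51.2 FPKM with NUP98-NSD1 alone and 245 to 701 FPKM with both constructs. Nup98 read 9.12 to 11.1 FPKM with NRASG12D, 18.2 to 19.0 FPKM with NUP98-NSD1, and 11.9, 15.6 and 20.2 FPKM in NUP98-NSD1+NRASG12D replicates 1, 2 and 3. Nsd1 overlapped between the groups, at 9.98 to 16.2 FPKM across all libraries. Endogenous and vector-borne transcripts are not separated in these values. The leukocyte gene Ptprc stood at 68.3 to 117 FPKM throughout. The summed level of 9 mast cell markers ranged over 30017 to 32656 FPKM with NRASG12D, over 13672 to 17477 with NUP98-NSD1 and over 459 to 2514 with both constructs. Another, Cpa3, was listed at 0 in every NRASG12D library and reached 14378 FPKM in NUP98-NSD1. It was therefore left out of that sum after its values were seen. The mast cell marker Cma1 read 12715 to 16008 FPKM in the same NRASG12D libraries. Whether the 0 of Cpa3 is a true absence or a failed estimate was not tested. With Cpa3, the NUP98-NSD1 sums were 26832 to 31856 FPKM and overlapped those of NRASG12D, and those with both constructs were 739 to 4335 FPKM. Of all 10 markers, 3 were called higher, Cpa3 among them, and 4 lower in NUP98-NSD1 than in NRASG12D (70% called, against 52.1% of all genes tested). The 10 neutrophil lineage markers summed to 26.6 to 34.7 FPKM with NRASG12D, 1741 to 6205 with NUP98-NSD1 and 8955 to 19582 with both constructs. Ltf and Camp stood at 0 in every NRASG12D library. For 12 monocyte and macrophage markers the sums were 23.8 to 93.0 and 1692 to 2310 FPKM, and then 4992, 12044 and 13981 FPKM in NUP98-NSD1+NRASG12D replicates 1, 2 and 3. In NRASG12D, 8 of these 12 markers were under 1 FPKM in every library. The groups thus differed in lineage markers as well as in construct, and in bulk RNA fewer cells of a type and less RNA per cell cannot be told apart. The part of these markers' cell types in the results below was not tested.

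Lysosomes degrade material delivered by endocytosis, phagocytosis and autophagy. The V-ATPase uses ATP hydrolysis in its V1 sector to drive protons through the c ring of V0, and the acid it produces activates the hydrolases. Many lysosomal genes are known targets of the MiT/TFE transcription factors (Mitf, Tfeb, Tfe3 and Tfec), which bind E-box type motifs around the core CACGTG. Secretory granules of mast cells and azurophil granules of neutrophils are lysosome-related organelles and share many of these proteins.

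RefSeq promoter windows, 250 bases before to 50 bases after a start site in GRCm38.p6, were at hand for 31 of the 38 genes. CACGTG, which reads alike on both strands, occurred in a window of 10 of the 31 genes (32.3%) and of 8.09% of the 27025 genes with a window. The longer TCACGTGA, which contains the former, occurred in 5 of the 31 (16.1%, against 1.12% of all genes), and TCATGTGA or its reverse complement TCACATGA in 4 (12.9%, against 1.15%). The CACGTG windows belonged to Atp6v0b, Atp6v0d1, Atp6v0e, Atp6v1a, Gaa, Gla, Glb1, Lamp1, Mcoln1 and Naglu. The following stretches of 100 bases were picked with the changes of their genes known. Lamp1 and Atp6v1a were higher and Glb1 lower in NUP98-NSD1+NRASG12D than in NRASG12D, and Mcoln1 was not called. These 4 stretches hold the motif. Those of Psap and Cd63, the cofactor and membrane genes with some of the widest changes, hold none. The relation of the motif to the changes was not tested. The stretches are written 5′ to 3′ on the gene's strand, with CACGTG in capitals, lie before the RefSeq start site and overlap no exon of the GENCODE annotation (release M21). Those of Lamp1, Mcoln1, Glb1 and Psap lie before the gene's GENCODE interval, whereas those of Atp6v1a and Cd63 lie inside it, since GENCODE also holds longer transcripts of these genes. Lamp1 lies at chr8:13159061-13159160 (plus strand), Mcoln1 at chr8:3500357-3500456 (plus), Glb1 at chr9:114400976-114401075 (plus), Atp6v1a at chr16:44139330-44139429 (minus), Psap at chr10:60277527-60277626 (plus) and Cd63 at chr10:128909245-128909344 (plus).
Lamp1: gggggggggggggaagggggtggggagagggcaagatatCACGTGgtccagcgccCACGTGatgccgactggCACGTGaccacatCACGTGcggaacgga
Mcoln1: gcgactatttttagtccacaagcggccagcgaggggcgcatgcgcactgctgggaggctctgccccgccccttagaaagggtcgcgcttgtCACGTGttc
Glb1: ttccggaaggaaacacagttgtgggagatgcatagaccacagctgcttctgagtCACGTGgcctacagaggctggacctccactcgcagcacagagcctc
Atp6v1a: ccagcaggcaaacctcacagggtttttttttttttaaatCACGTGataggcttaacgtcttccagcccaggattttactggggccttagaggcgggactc
Psap: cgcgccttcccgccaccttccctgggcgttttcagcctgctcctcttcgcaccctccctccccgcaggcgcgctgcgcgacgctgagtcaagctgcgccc
Cd63: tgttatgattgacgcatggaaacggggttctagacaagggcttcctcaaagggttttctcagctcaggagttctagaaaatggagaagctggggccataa

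Lamp1 held 4 copies of CACGTG, at positions -61, -45, -28 and -15 from its start site, more than in any other window of the 31 genes. A match is a description of the sequence and not evidence of binding. Of the 10 genes with CACGTG, 3 were higher and 1 lower in NUP98-NSD1+NRASG12D than in NRASG12D, with a median log2 fold change of 0.29. Of the 21 genes whose windows lacked it, 10 were higher and 1 lower, with a median of 0.96. Over all genes tested, 24.2% were higher and 14.1% lower in this comparison, with a median of 0.23, near that of the 10 genes with CACGTG. The difference between the sets with and without CACGTG was not tested.

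The class means gave a first view of how the libraries lay. The mean log2(FPKM + 1) of the 38 genes, less the mean over all 13493 genes tested, was 2.73, 2.76 and 2.76 in NRASG12D replicates 1, 2 and 3, and 2.64, 2.58 and 2.60 in NUP98-NSD1. In NUP98-NSD1+NRASG12D it was 2.57, 3.62 and 3.39. On this scale, replicates 2 and 3 of the double-transduced cells thus stood above the other 7 libraries. Replicate 1 was the lowest of the 9, at 2.572 against 2.576 in NUP98-NSD1 replicate 2. The mean over all genes tested was itself lower in NRASG12D (3.45 to 3.56) than in the other groups (3.70 to 3.89). Without subtracting it, replicate 1 read 6.42, against 6.21 to 6.32 in NRASG12D and 6.37 to 6.52 in NUP98-NSD1. Replicates 2 and 3 then read 7.38 and 7.09. On the subtracted scale, the order of the libraries held only in part in the pump genes alone. There replicate 1 read 2.97 against 2.86 to 2.96 in NUP98-NSD1 and 3.86 and 3.71 in replicates 2 and 3. For the hydrolases and cofactors replicate 1 read 2.37, below every other library, and replicates 2 and 3 read 3.50 and 3.20. The difference between pump and hydrolase means was 0.48 to 0.56 in NRASG12D and 0.44 to 0.48 in NUP98-NSD1. In NUP98-NSD1+NRASG12D replicates 1, 2 and 3 it was 0.60, 0.36 and 0.51. Both classes were thus highest in replicates 2 and 3, while the gap between them varied most among the double-transduced libraries. Replicate 1 also had the lowest monocyte and macrophage marker sum of its group. As a share of all FPKM of a library, the 38 genes took 1.32 to 1.37% with NRASG12D, 1.05 to 1.16% with NUP98-NSD1, and 0.863%, 1.83% and 1.44% with both constructs. Such a share is weighted by the most abundant genes and does not describe the list as a whole. Cd63 alone read 3124 to 3540 FPKM with NRASG12D, 1752 to 2424 FPKM with NUP98-NSD1 and 389 to 883 FPKM with both constructs. The share without Cd63 was not computed.

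**Figure D1:**
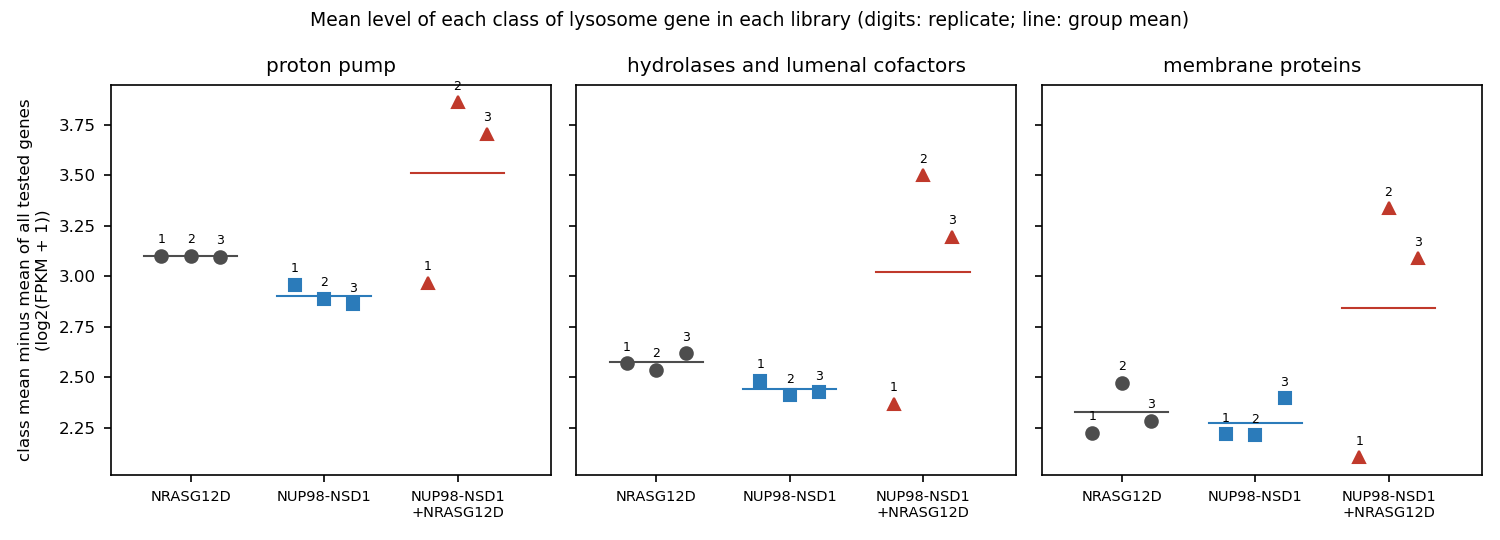
Mean log2(FPKM + 1) of each class of lysosome gene less the mean of all 13493 genes tested, per library, with digits for the replicate and a line for the group mean. In each panel NUP98-NSD1+NRASG12D replicates 2 and 3 stand above the 7 other libraries and replicate 1 lies near or below the NUP98-NSD1 libraries; the proton pump panel reads 2.97 for replicate 1 against 3.86 and 3.71.

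With NUP98-NSD1 against NRASG12D, 13 of the 38 genes were higher and 7 lower at an adjusted p under 0.05 (limma, Benjamini-Hochberg over all genes tested). That is 52.6% of the list, against 52.1% of all genes tested (42.2% higher and 9.98% lower), so the list was called no more often than the rest. Its median log2 fold change was 0.09 and that of all genes 0.27, and 26 of 38 values were above 0. Ranges of the libraries did not overlap for 15 higher and 8 lower genes, 60.5% of the list in all, where the background was 64.2% (50.7% higher and 13.5% lower). The direction of this comparison depended on scaling: the split of 13 higher and 7 lower became 6 and 14 with median-ratio scaling, 7 and 14 with quantile normalization and 8 and 10 with rescaling to an equal sum. With median-ratio scaling the higher calls of Atp6v0a1, Atp6v0c, Atp6v1a, Gusb, Asah1, Npc2 and Lamp1 were lost, and in a single fit of all 9 libraries only Atp6v1b2, Atp6ap2, Psap and Scarb2 stayed called. The count of 20 fell to 12 without NRASG12D replicate 1, 13 without replicate 3, 12 without NUP98-NSD1 replicate 1 and 11 without replicate 2.

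With NUP98-NSD1+NRASG12D against NRASG12D, 16 genes were higher and 2 lower, 47.4% of the list against 38.3% of all genes. The higher genes made up 42.1% of the list where 24.2% of all genes were higher, and the lower ones 5.26% where the background was 14.1%. The list's median log2 fold change was 0.71 and that of all genes 0.23. Library ranges did not overlap for 19 higher and 4 lower genes, against 58.6% of all genes (38.7% higher and 19.9% lower). With quantile normalization 11 genes were higher and 4 lower, the lost calls being those of Atp6v1c1, Atp6v1e1, Gla, Gusb and Npc2, and all of these but Npc2 were also lost with median-ratio scaling. With no filter on low values the calls of Lipa and Glb1 were among those lost, and without any single library 14 to 24 genes were called.

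Both of these comparisons use the same NRASG12D libraries and the third uses both others, so their values are given side by side and not as independent evidence. With NUP98-NSD1+NRASG12D against NUP98-NSD1, 4 genes were higher (Atp6v1b2, Asah1, Psap and Lamp1) and 1 lower (Cd63), 13.2% of the list against 8.61% of all genes (2.3% higher and 6.31% lower). The list's median was 0.51 where that of all genes was -0.06, and 33 of 38 values were above 0. Library ranges did not overlap for 20 higher and 3 lower genes, against 31.4% of all genes (11.6% higher and 19.8% lower). The 5 calls were lost when some libraries were left out, although the log2 fold changes kept their direction. Those ranged over 0.91 to 1.34 for Atp6v1b2, 0.80 to 1.04 for Asah1, 1.29 to 1.94 for Psap, 0.87 to 1.20 for Lamp1 and -1.88 to -1.29 for Cd63. None of the 38 genes was called without NUP98-NSD1 replicate 1, 2 or 3 or without NUP98-NSD1+NRASG12D replicate 3. Without its replicate 2, Psap and Lamp1 kept their calls, Atp6v1b2, Asah1 and Cd63 lost theirs and Glb1 was called lower. Without its replicate 1, 22 genes were called. Scaling moved the split to 2 higher and 0 lower (median-ratio), 0 and 1 (quantile) and 2 and 1 (rescaling to an equal sum), and the replicate number as a block left 1 call.

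**Figure D2:**
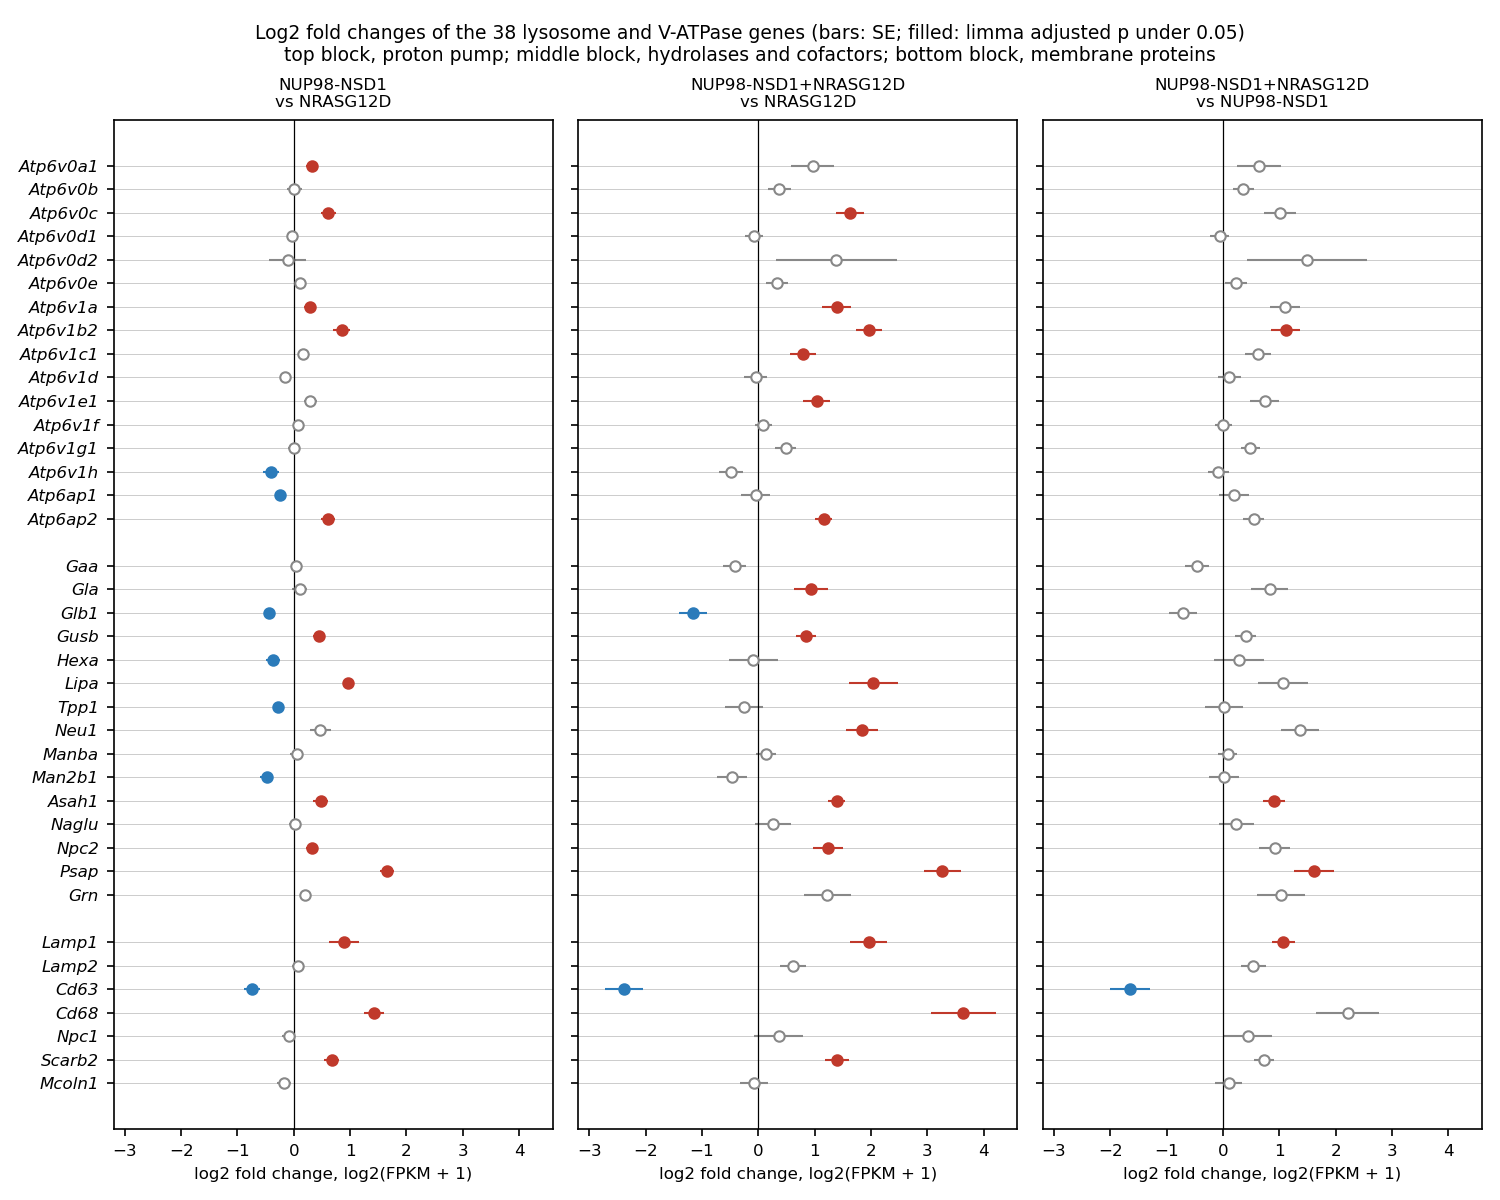
Log2 fold change (difference of mean log2(FPKM + 1)) of each of the 38 genes in the 3 comparisons, with bars for the standard error and filled points for an adjusted p under 0.05 (limma). Against NRASG12D, 16 genes are higher and 2 lower in NUP98-NSD1+NRASG12D, and the widest changes are those of Cd68 and Psap upwards and Cd63 downwards; in the NUP98-NSD1 panel the split of 13 higher and 7 lower becomes 6 and 14 with median-ratio scaling.

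Among the pump genes, 6 of 16 rose and none fell in NUP98-NSD1+NRASG12D against NRASG12D. They were Atp6v0c of the V0 sector, Atp6v1a, Atp6v1b2, Atp6v1c1 and Atp6v1e1 of the V1 sector, and the accessory gene Atp6ap2. In NUP98-NSD1 against NRASG12D 5 were higher and 2 lower, and between the NUP98-NSD1 groups only Atp6v1b2 was called. In NUP98-NSD1+NRASG12D against NRASG12D, 37.5% of the 16 were higher and 0% lower, against 24.2% and 14.1% of all genes tested. With NUP98-NSD1 against NRASG12D, 31.25% were higher and 12.5% lower, against 42.2% and 9.98%. In either direction, 37.5% and 43.8% of the 16 were called in these comparisons, near or below the 38.3% and 52.1% of all genes. Between the NUP98-NSD1 groups 6.25% were called, against 8.61%.

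Atp6v1b2 (chr8:69088646-69113711) encodes the B2 subunit, which forms the V1 head together with the catalytic A subunit. It stood at 43.8, 46.6 and 42.7 FPKM in NRASG12D, at 95.1, 86.3 and 64.0 FPKM in NUP98-NSD1 and at 128, 232 and 182 FPKM in NUP98-NSD1+NRASG12D. No group overlapped another, and all 6 libraries with NUP98-NSD1 lay above the 3 without it. These gave log2 fold changes of 0.85 ± 0.15 (SE, adjusted p = 0.00381) for NUP98-NSD1 and 1.96 ± 0.23 (adjusted p = 0.00092) for NUP98-NSD1+NRASG12D against NRASG12D, and 1.11 ± 0.27 (adjusted p = 0.0496) between the NUP98-NSD1 groups.

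Atp6v1a (chr16:44085402-44139705), which encodes the catalytic A subunit, stood at 46.0, 47.9 and 47.9 FPKM in NRASG12D, 66.5, 54.4 and 53.7 FPKM in NUP98-NSD1 and 82.3, 157 and 152 FPKM in NUP98-NSD1+NRASG12D. The groups again did not overlap, with replicate 1 the lowest of the double-transduced libraries. Its log2 fold change was 1.39 ± 0.26 (adjusted p = 0.00642) in NUP98-NSD1+NRASG12D and 0.29 ± 0.10 (adjusted p = 0.0459) in NUP98-NSD1 against NRASG12D, and the latter turned to -0.01 with median-ratio scaling and -0.02 with quantile normalization and was lost without 5 of the 6 libraries. Between the NUP98-NSD1 groups it was 1.10 ± 0.27 (adjusted p = 0.0547).

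Atp6v0c (chr17:24163866-24169702) encodes the proteolipid that builds the proton-carrying c ring. Its level was 259, 287 and 256 FPKM in NRASG12D, 481, 426 and 335 FPKM in NUP98-NSD1, and 591, 894 and 1063 FPKM in NUP98-NSD1+NRASG12D, again without overlap. Against NRASG12D it rose by 0.61 ± 0.14 (adjusted p = 0.00987) and 1.62 ± 0.25 (adjusted p = 0.00268) on the log2 scale, and the difference between the NUP98-NSD1 groups was 1.01 ± 0.28 (adjusted p = 0.0751). The V0 gene beside it in the assembled ring, Atp6v0b, ranged from 276 to 510 FPKM and was not called in any comparison. Of the 50-base stretches of Atp6v0c transcripts, 10.8% also occurred in other annotated genes, chiefly the pseudogene Atp6v0c-ps2, so its reads could be split.

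Atp6ap2, the prorenin receptor and a V-ATPase accessory protein, rose with NUP98-NSD1 in every library. It stood at 64.7, 66.8 and 59.4 FPKM in NRASG12D, at 109, 106 and 80.6 FPKM in NUP98-NSD1 and at 124, 148 and 160 FPKM in NUP98-NSD1+NRASG12D. Its rises against NRASG12D were 0.61 ± 0.13 (adjusted p = 0.0074) and 1.16 ± 0.16 (adjusted p = 0.00161) on the log2 scale. The other accessory gene, Atp6ap1, was lower in NUP98-NSD1 by 0.25 on the log2 scale (log2 fold change -0.25 ± 0.07, adjusted p = 0.025), a call lost without 5 of the 6 libraries in turn.

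The remaining pump genes moved less. Atp6v1c1 and Atp6v1e1, both of the V1 stalks, rose by 0.79 ± 0.23 (adjusted p = 0.0346) and 1.03 ± 0.24 (adjusted p = 0.0156) in NUP98-NSD1+NRASG12D against NRASG12D, although the first call was lost without 5 of the 6 libraries in turn and the second without NRASG12D replicate 1 or 3. Atp6v1h, a regulatory subunit, was lower in NUP98-NSD1 (log2 fold change -0.41 ± 0.14, adjusted p = 0.0466), also lost without 5 of 6 libraries. Atp6v0a1, an a subunit, stood at 31.7, 37.99 and 32.2 FPKM in NRASG12D and 42.3, 46.7 and 38.8 FPKM in NUP98-NSD1 (log2 fold change 0.32 ± 0.11, adjusted p = 0.0413, lost without 4 of the 6 libraries). In NUP98-NSD1+NRASG12D it read 36.7, 116 and 69.9 FPKM, with replicate 1 inside the range of NRASG12D, and the fold change was not called (0.96 ± 0.38, adjusted p = 0.0862). Atp6v0d1, Atp6v0e, Atp6v1d, Atp6v1f and Atp6v1g1, like Atp6v0b, were not called in any comparison. Among them Atp6v1g1 shared 19.2% of its 50-base stretches with other annotated genes and Atp6v1f 11.2%.

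Atp6v0d2, a d subunit isoform known from osteoclasts and macrophages, was set apart by 1 library and is named here after its values were seen. It read 2.79, 1.63 and 5.43 FPKM in NRASG12D, 3.61, 2.76 and 1.95 FPKM in NUP98-NSD1, and 2.35, 67.2 and 3.99 FPKM in NUP98-NSD1+NRASG12D. Apart from replicate 2 of the last group, all 8 libraries lay under 6 FPKM, and no comparison was called (adjusted p = 0.334 against NRASG12D). The 6 osteoclast markers summed to 34.0 FPKM in that same library, against 0.717 to 15.1 FPKM in the others, and the 3 complement genes C1qa, C1qb and C1qc also had their highest values there (144, 485 and 346 FPKM).

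The a subunit genes outside the 38 followed opposite directions. Tcirg1, which encodes the a3 isoform, stood at 21.2, 28.3 and 17.3 FPKM in NRASG12D, at 70.3, 60.3 and 51.1 FPKM in NUP98-NSD1 and at 87.0, 197 and 115 FPKM in NUP98-NSD1+NRASG12D. Atp6v0a2, the a2 isoform, stood at 57.0, 61.8 and 66.4 FPKM, 41.9, 44.5 and 50.3 FPKM, and 26.9, 34.6 and 27.9 FPKM in the same order. Neither gene had overlapping groups. The log2 fold changes against NRASG12D were 1.42 ± 0.19 (adjusted p = 0.00173) and 2.47 ± 0.32 (adjusted p = 0.00147) for Tcirg1, and -0.43 ± 0.10 (adjusted p = 0.0105) and -1.03 ± 0.16 (adjusted p = 0.00257) for Atp6v0a2. Within each library, log2(FPKM + 1) of Tcirg1 less that of Atp6v0a2 ranged over -1.88 to -1.10 with NRASG12D, over 0.02 to 0.73 with NUP98-NSD1 and over 1.65 to 2.48 with both constructs. Atp6v0a2 was singled out after its values were seen. Of the other 17 pump subunits and assembly factors on a second list, 10 passed the filter on low values, and 3 were higher and 2 lower than NRASG12D in each NUP98-NSD1 group (50% called, against 52.1% and 38.3% of all genes), the 3 higher ones being Tcirg1 and, of the V-ATPase regulatory RAVE-type complex, Dmxl2 and Rogdi (2.31 ± 0.30, adjusted p = 0.00143, and 2.02 ± 0.22, adjusted p = 0.000746, in NUP98-NSD1+NRASG12D).

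The hydrolases moved in both directions. Of 12, 3 were higher and 4 lower in NUP98-NSD1 than in NRASG12D, and 5 were higher (Gla, Gusb, Lipa, Neu1 and Asah1) and 1 lower (Glb1) in NUP98-NSD1+NRASG12D. The called ones were 58.3% and 50% of the 12, against 52.1% and 38.3% of all genes tested. All 3 cofactor genes had higher values in both comparisons, and 2 of them were called in each.

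Lipa, lysosomal acid lipase, which releases cholesterol from endocytosed esters, had the widest rise among the 12. It stood at 17.3, 19.6 and 17.3 FPKM in NRASG12D, 37.4, 35.3 and 36.5 FPKM in NUP98-NSD1 and 42.2, 157 and 69.2 FPKM in NUP98-NSD1+NRASG12D. The NUP98-NSD1 libraries were close together, the double-transduced ones were spread, and every library with NUP98-NSD1 lay above every one without. Against NRASG12D its log2 fold changes were 0.97 ± 0.08 (adjusted p = 0.000472) and 2.04 ± 0.43 (adjusted p = 0.0109), and that between the NUP98-NSD1 groups was not called (1.07 ± 0.44, adjusted p = 0.19).

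Neu1 (chr17:34931253-34935953), the lysosomal sialidase, and Glb1 (chr9:114401076-114474898), the β-galactosidase, are known to act in one multienzyme complex. Neu1 stood at 23.01, 22.8 and 23.8 FPKM in NRASG12D, 40.9, 35.3 and 23.8 FPKM in NUP98-NSD1 and 58.4, 80.8 and 131 FPKM in NUP98-NSD1+NRASG12D. Glb1 stood at 133, 125 and 140 FPKM, 95.9, 102 and 92.2 FPKM, and 43.8, 84.5 and 54.1 FPKM in the same order. The double-transduced libraries were thus the highest 3 for Neu1 and the lowest 3 for Glb1, while NUP98-NSD1 replicate 3 overlapped NRASG12D for Neu1. Against NRASG12D, the log2 fold changes of Neu1 were 0.47 ± 0.18 (adjusted p = 0.0667) in NUP98-NSD1 and 1.83 ± 0.28 (adjusted p = 0.00286) in NUP98-NSD1+NRASG12D. Those of Glb1 were -0.45 ± 0.08 (adjusted p = 0.00456) and -1.16 ± 0.25 (adjusted p = 0.0105). Between the NUP98-NSD1 groups neither passed the threshold (adjusted p = 0.0523 for Neu1 and 0.13 for Glb1).

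Asah1, acid ceramidase, read 58.0, 63.4 and 55.6 FPKM in NRASG12D, 99.5, 79.6 and 70.7 FPKM in NUP98-NSD1 and 134, 176 and 160 FPKM in NUP98-NSD1+NRASG12D. It was the one hydrolase called in all 3 comparisons, with log2 fold changes of 0.48 ± 0.13 (adjusted p = 0.0207), 1.39 ± 0.16 (adjusted p = 0.000851) and 0.91 ± 0.19 (adjusted p = 0.035, between the NUP98-NSD1 groups). Its first call was lost without NRASG12D replicate 1 or 3 or NUP98-NSD1 replicate 2. Gusb, β-glucuronidase, read 81.5, 86.5 and 73.3 FPKM, 115, 116 and 98.2 FPKM, and 118, 170 and 152 FPKM. Its log2 fold changes against NRASG12D were 0.44 ± 0.10 (adjusted p = 0.0104) and 0.85 ± 0.18 (adjusted p = 0.0111), both lost with median-ratio scaling and quantile normalization, the first also in the single fit and the second without NRASG12D replicate 3. Gla, α-galactosidase A, was called in NUP98-NSD1+NRASG12D against NRASG12D alone (0.93 ± 0.31, adjusted p = 0.0495), a call lost without 5 of the 6 libraries.

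Hexa, Tpp1 and Man2b1, which encode a β-hexosaminidase subunit, tripeptidyl peptidase 1 and lysosomal α-mannosidase, were the other genes lower in NUP98-NSD1 than in NRASG12D. Their log2 fold changes were -0.37 ± 0.12 (adjusted p = 0.0366), -0.28 ± 0.09 (adjusted p = 0.0306) and -0.48 ± 0.11 (adjusted p = 0.01). The call was lost without 5 of the 6 libraries for Hexa and 4 for Tpp1. In NUP98-NSD1+NRASG12D, replicate 1 had the lowest level of the 9 libraries for all 3 genes (80.6, 103 and 80.1 FPKM), and for Hexa and Tpp1 replicate 2 had the highest (250.8 and 253 FPKM). Gaa, Manba and Naglu were not called in any comparison.

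Psap (chr10:60277627-60302597), the precursor of the saposins that present sphingolipids to hydrolases, had the widest change among the hydrolases and cofactors. It stood at 156, 177 and 149 FPKM in NRASG12D, 596, 492 and 441 FPKM in NUP98-NSD1 and 983, 2424 and 1565 FPKM in NUP98-NSD1+NRASG12D. The groups did not overlap, and replicate 2 of the double-transduced cells was the highest library. The mean level was 10.3-fold that of NRASG12D in NUP98-NSD1+NRASG12D and 3.17-fold in NUP98-NSD1. On the log2 scale the changes were 1.65 ± 0.13 (adjusted p = 0.000309) and 3.27 ± 0.33 (adjusted p = 0.000518) against NRASG12D and 1.61 ± 0.36 (adjusted p = 0.0401) between the NUP98-NSD1 groups. Gm2a, the activator of ganglioside breakdown from the second list of hydrolases and cofactors, moved the other way and is named after its values were seen. It stood at 429, 281 and 512 FPKM, 192, 175 and 197 FPKM, and 66.9, 71.6 and 69.0 FPKM. Its log2 fold changes were -1.07 ± 0.21 (adjusted p = 0.00568), -2.50 ± 0.23 (adjusted p = 0.000395) and -1.43 ± 0.14 (adjusted p = 0.00556). In log2(FPKM + 1), Psap lay 0.66 to 1.77 below Gm2a in the NRASG12D libraries and 3.86 to 5.06 above it in NUP98-NSD1+NRASG12D.

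Npc2, which carries cholesterol within the lysosomal lumen, read 84.1, 79.4 and 77.0 FPKM in NRASG12D, 113, 99.8 and 89.8 FPKM in NUP98-NSD1 and 135, 282 and 181 FPKM in NUP98-NSD1+NRASG12D. The groups did not overlap. Its log2 fold changes against NRASG12D were 0.32 ± 0.10 (adjusted p = 0.0314, lost without 5 of the 6 libraries) and 1.24 ± 0.27 (adjusted p = 0.0113). Grn, progranulin, named after its values were seen, read 254, 304 and 262 FPKM in NRASG12D, 312, 304 and 319 FPKM in NUP98-NSD1 and 325, 1061 and 754 FPKM in NUP98-NSD1+NRASG12D. Replicate 1 of the last group lay only just above the NUP98-NSD1 libraries, and the fold change against NRASG12D was not called (1.23 ± 0.42, adjusted p = 0.0539).

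The second list of 30 other hydrolases and cofactors found in the tables held about as many higher as lower genes, with 8 higher and 7 lower in NUP98-NSD1 and 7 higher and 7 lower in NUP98-NSD1+NRASG12D against NRASG12D, for medians of -0.05 and 0.01. In NUP98-NSD1 that is 26.7% higher and 23.3% lower, where 42.2% and 9.98% of all genes were, and in NUP98-NSD1+NRASG12D it is 23.3% in each direction, where 24.2% of all genes were higher and 14.1% lower. The widest changes were those of Lgmn, Scpep1 and Arsb. Lgmn, the asparaginyl endopeptidase legumain, went from 5.42, 2.35 and 1.66 FPKM in NRASG12D to 41.9, 44.4 and 41.4 FPKM in NUP98-NSD1 and 83.6, 854 and 143 FPKM in NUP98-NSD1+NRASG12D. Scpep1, a serine carboxypeptidase, was under 1 FPKM in every NRASG12D library, at 22.5, 16.5 and 11.1 FPKM in NUP98-NSD1 and at 38.4, 125 and 56.8 FPKM in NUP98-NSD1+NRASG12D. Arsb, arylsulfatase B, was likewise under 1 FPKM in NRASG12D, at 3.14 to 7.01 FPKM in NUP98-NSD1 and at 10.7 to 13.2 FPKM in NUP98-NSD1+NRASG12D. The log2 fold changes in NUP98-NSD1+NRASG12D against NRASG12D were 5.82 ± 0.83 (adjusted p = 0.00202) for Lgmn, 5.21 ± 0.41 (adjusted p = 0.000204) for Scpep1 and 3.12 ± 0.16 (adjusted p = 5.4e-05) for Arsb.

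**Figure D3:**
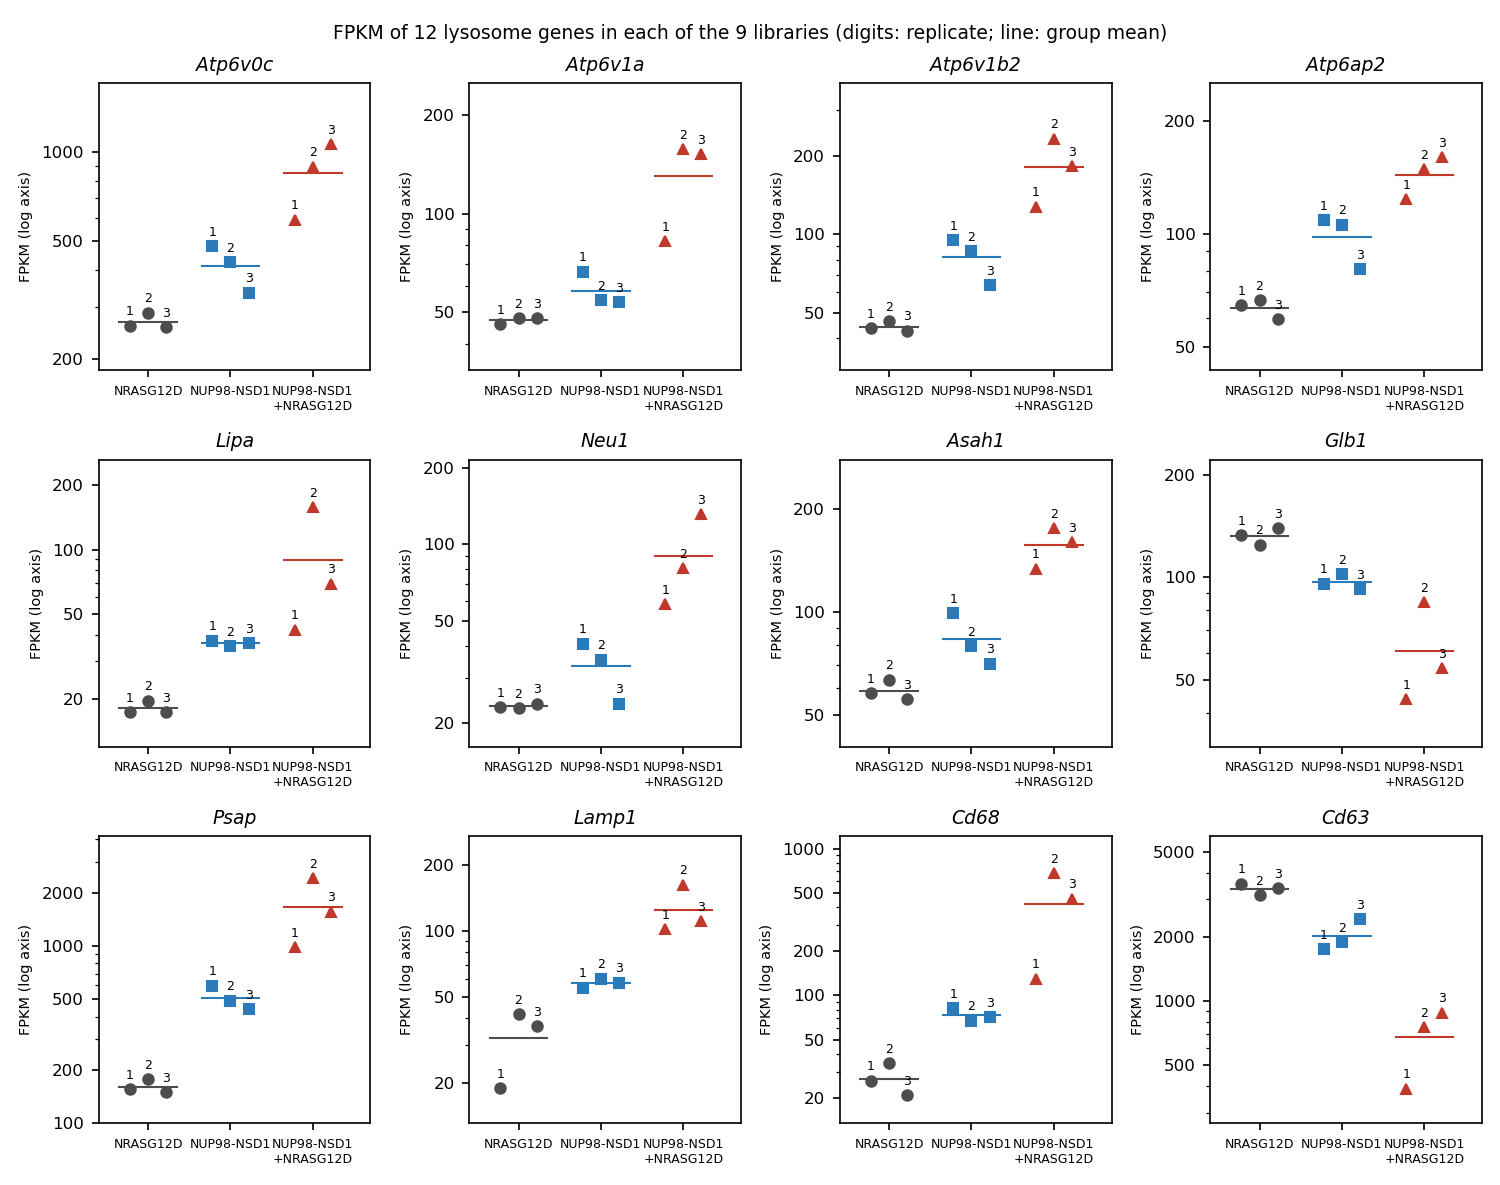
FPKM on a log axis of 12 lysosome and V-ATPase genes in each library, with digits for the replicate and a line for the group mean. Atp6v1b2, Lipa, Psap and Cd68 step up from NRASG12D to NUP98-NSD1 to NUP98-NSD1+NRASG12D without overlap, Glb1 and Cd63 step down, and NUP98-NSD1+NRASG12D replicate 1 is the lowest of its group in all 12 panels, Glb1 and Cd63 included (Cd68 130 against 682 and 456 FPKM).

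In NUP98-NSD1+NRASG12D against NRASG12D, the 7 membrane genes held both the widest rise (Cd68) and the widest fall (Cd63) of the 38, while in NUP98-NSD1 the widest rise was that of Psap. Lamp1, Cd68 and Scarb2 rose and Cd63 fell in each NUP98-NSD1 group against NRASG12D, and Lamp2, Npc1 and Mcoln1 were not called in any comparison. The 4 called genes made up 57.1% of the 7 in NUP98-NSD1 and in NUP98-NSD1+NRASG12D, against 52.1% and 38.3% of all genes tested.

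Cd68 (chr11:69664213-69666153), a LAMP-family glycoprotein used as a macrophage marker, stood at 26.2, 34.4 and 20.9 FPKM in NRASG12D, 82.1, 67.4 and 71.2 FPKM in NUP98-NSD1 and 130, 682 and 456 FPKM in NUP98-NSD1+NRASG12D. The groups did not overlap, and the double-transduced libraries were the most spread. Log2 fold changes against NRASG12D were 1.43 ± 0.18 (adjusted p = 0.0014) and 3.64 ± 0.58 (adjusted p = 0.00324), and that between the NUP98-NSD1 groups was 2.21 ± 0.57 (adjusted p = 0.0597). Of the double-transduced libraries, replicate 1 had both the lowest Cd68 and the lowest monocyte and macrophage marker sum, but Cd68 was highest in replicate 2 and that sum in replicate 3.

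Cd63 (chr10:128900989-128912822), a tetraspanin of late endosomes and of mast cell granules, had the highest level of the 38 genes in NRASG12D. It stood there at 3540, 3124 and 3375 FPKM, at 1752, 1881 and 2424 FPKM in NUP98-NSD1 and at 389, 755 and 883 FPKM in NUP98-NSD1+NRASG12D. The groups did not overlap. The log2 fold changes were -0.74 ± 0.14 (adjusted p = 0.00588) and -2.39 ± 0.34 (adjusted p = 0.00197) against NRASG12D and -1.65 ± 0.36 (adjusted p = 0.0386) between the NUP98-NSD1 groups. The mast cell marker sum without Cpa3 fell over the same groups, whereas with Cpa3 the NRASG12D and NUP98-NSD1 sums overlapped. Among the double-transduced libraries that sum was highest in replicate 2 with or without Cpa3, while Cd63 was highest in replicate 3. Of its 50-base stretches 11.1% occurred in other annotated genes, mostly the pseudogene Cd63-ps. Within each library, log2(FPKM + 1) of Cd68 less that of Cd63 ranged over -7.27 to -6.46 with NRASG12D, over -5.07 to -4.40 with NUP98-NSD1 and over -1.57 to -0.15 with both constructs.

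Lamp1 (chr8:13159161-13175338), a main glycoprotein of the lysosomal membrane, read 19.0, 41.6 and 36.6 FPKM in NRASG12D, 54.9, 60.4 and 58.0 FPKM in NUP98-NSD1 and 102, 163 and 111 FPKM in NUP98-NSD1+NRASG12D. NRASG12D replicate 1 was the lowest of the 9 libraries, and the groups did not overlap. The log2 fold changes were 0.89 ± 0.26 (adjusted p = 0.0264), 1.96 ± 0.32 (adjusted p = 0.00382) and, between the NUP98-NSD1 groups, 1.07 ± 0.21 (adjusted p = 0.0268), and the first was lost without any 1 of the NUP98-NSD1 libraries. Lamp2, its paralog, ranged from 145 to 330 FPKM and was the more abundant of the pair in every library, by 1.96 to 3.12 on the log2(FPKM + 1) scale in NRASG12D and 0.90 to 1.22 in NUP98-NSD1+NRASG12D. Scarb2, the receptor that carries β-glucocerebrosidase to the lysosome, was at low level throughout, at 4.78, 6.50 and 4.59 FPKM, 9.01, 9.36 and 8.45 FPKM, and 12.6, 18.8 and 15.6 FPKM. Its groups did not overlap, and its log2 fold changes against NRASG12D were 0.67 ± 0.14 (adjusted p = 0.00671) and 1.40 ± 0.21 (adjusted p = 0.00244).

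Of the 26 other lysosomal membrane proteins listed, 23 passed the filter, with 10 higher and 6 lower in NUP98-NSD1 and 9 higher and 5 lower in NUP98-NSD1+NRASG12D against NRASG12D. These were 69.6% and 60.9% of the 23, against 52.1% and 38.3% of all genes tested. The widest rises in NUP98-NSD1+NRASG12D against NRASG12D were those of Mfsd12, a cysteine carrier, Slc15a3, a peptide and histidine carrier, and Slc11a1, the divalent metal carrier NRAMP1 of phagocytes. Mfsd12 read 2.25 to 4.36 FPKM with NRASG12D, 15.9 to 27.3 FPKM with NUP98-NSD1 and 39.2, 92.6 and 49.2 FPKM with both constructs. Slc15a3 and Slc11a1 were under 1 FPKM in every NRASG12D library and were spread in NUP98-NSD1+NRASG12D, where Slc15a3 read 4.28, 37.0 and 9.47 FPKM and Slc11a1 read 4.53, 23.2 and 11.7 FPKM, with replicate 2 the highest for both.

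The MiT/TFE factors moved in opposite directions. Mitf, the family member known from mast cells and melanocytes, stood at 29.8, 33.1 and 30.6 FPKM in NRASG12D, 15.1, 14.5 and 17.6 FPKM in NUP98-NSD1 and 4.13, 12.3 and 6.02 FPKM in NUP98-NSD1+NRASG12D. Tfec, known from macrophages, was at most 0.101 FPKM in NRASG12D, near or under the level of 3 fragments for a 1-kb transcript (0.0847 to 0.134 FPKM at the estimated depths), and stood at 35.4, 33.3 and 9.77 FPKM in NUP98-NSD1 and 52.2, 41.2 and 42.5 FPKM in NUP98-NSD1+NRASG12D. Tfeb, the factor most studied as a regulator of lysosomal genes, was at 0.148 to 0.687 FPKM, 3.15 to 5.20 FPKM and 7.32 to 9.73 FPKM in the same order. None of these 3 genes had overlapping groups. The log2 fold changes in NUP98-NSD1 and NUP98-NSD1+NRASG12D against NRASG12D were -0.95 ± 0.10 (adjusted p = 0.000883) and -2.04 ± 0.33 (adjusted p = 0.00368) for Mitf. They were 4.50 ± 0.44 (adjusted p = 0.000695) and 5.46 ± 0.16 (adjusted p = 1.4e-05) for Tfec, and 1.95 ± 0.21 (adjusted p = 0.000925) and 2.82 ± 0.21 (adjusted p = 0.000174) for Tfeb. Tfe3, named after its values were seen, moved less but also had no overlapping groups. It read 17.7 to 18.2 FPKM in NRASG12D, 19.4 to 22.2 FPKM in NUP98-NSD1 and 24.9 to 35.1 FPKM in NUP98-NSD1+NRASG12D. Tfe3 was called in NUP98-NSD1+NRASG12D against NRASG12D (0.64 ± 0.17, adjusted p = 0.0228, lost without any 1 of the NRASG12D libraries and with each of the 3 scalings). None of the 4 was called between the NUP98-NSD1 groups, where Tfeb came nearest (adjusted p = 0.0531).

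**Figure D4:**
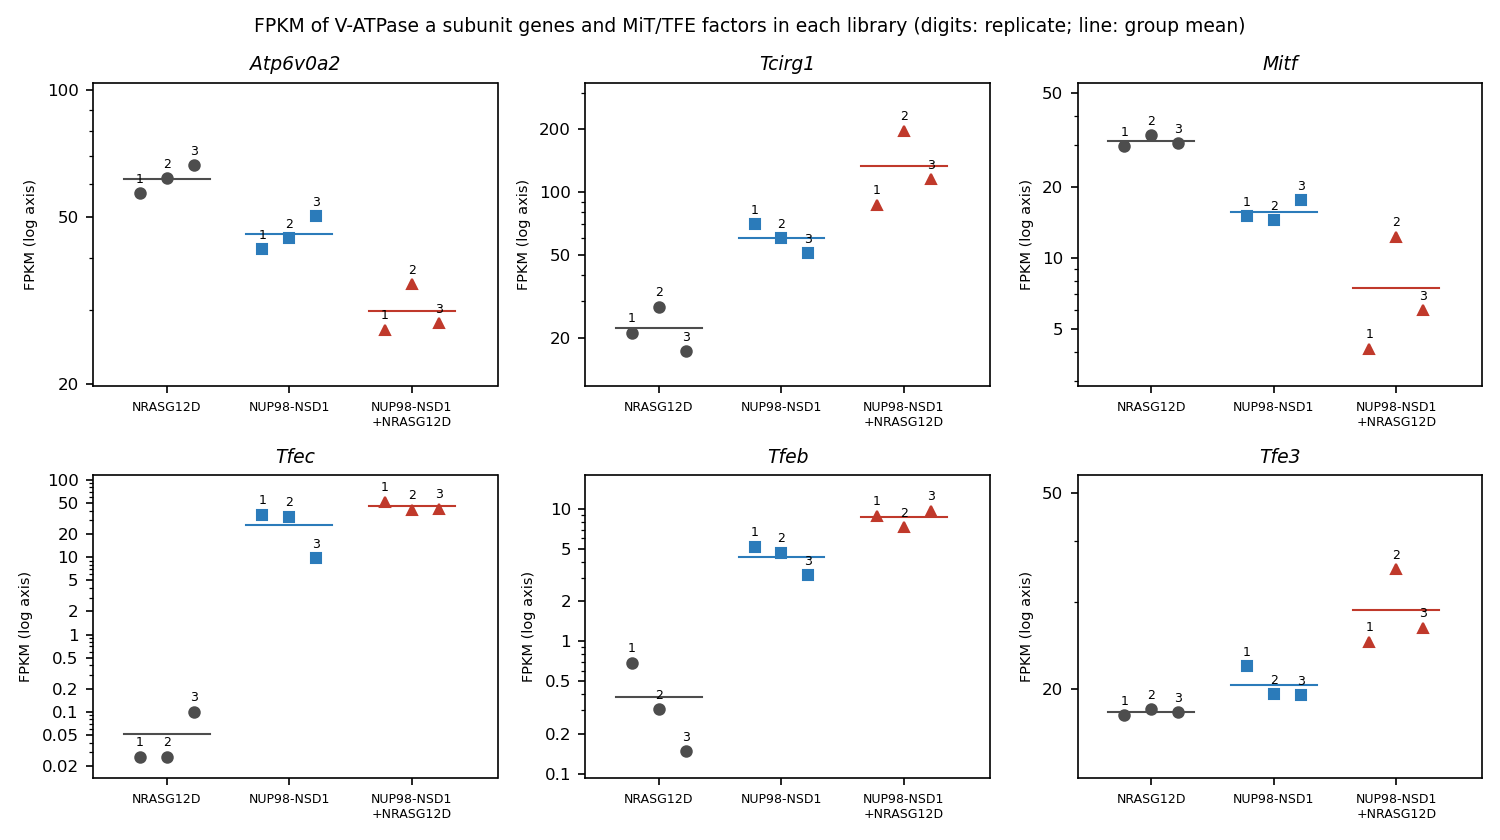
FPKM on a log axis of the a subunit genes Atp6v0a2 and Tcirg1 and of the MiT/TFE factors Mitf, Tfec, Tfeb and Tfe3 in each library, with digits for the replicate and a line for the group mean. Atp6v0a2 and Mitf step down from NRASG12D to NUP98-NSD1+NRASG12D while Tcirg1, Tfec and Tfeb step up (Mitf from 29.8 to 33.1 FPKM down to 4.13 to 12.3 FPKM).

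Genes for delivery to and signalling from the lysosome moved in both directions. Of 12 sorting genes tested, 3 were higher and 2 lower in NUP98-NSD1 and 5 higher and 3 lower in NUP98-NSD1+NRASG12D against NRASG12D, 41.7% and 66.7% of them where the shares of all genes were 52.1% and 38.3%. Sort1, a sorting receptor, was under 1 FPKM in NRASG12D and at 3.53 to 7.55 FPKM in NUP98-NSD1+NRASG12D (2.36 ± 0.25, adjusted p = 0.000677). Gnptab, the enzyme that starts the mannose 6-phosphate tag on hydrolases, stood at 36.6, 42.2 and 42.5 FPKM in NRASG12D, 34.8, 39.2 and 46.2 FPKM in NUP98-NSD1 and 16.7, 14.9 and 19.3 FPKM in NUP98-NSD1+NRASG12D. Only the double-transduced libraries were low, and the log2 fold changes were -1.21 ± 0.16 (adjusted p = 0.00137) against NRASG12D and -1.19 ± 0.17 (adjusted p = 0.012, lost without NUP98-NSD1 replicate 2 or 3) against NUP98-NSD1. Vps39, a subunit of the HOPS tether, was lower in NUP98-NSD1+NRASG12D than in NRASG12D by 1.04 on the log2 scale (log2 fold change -1.04 ± 0.19, adjusted p = 0.00655). Of 11 genes tested that dock mTORC1 at the lysosome, 2 were higher and 2 lower in NUP98-NSD1, and 1 was higher and 1 lower in NUP98-NSD1+NRASG12D, against NRASG12D, and these 36.4% and 18.2% lay below the same shares. The latter 2 were Lamtor1, a Ragulator subunit (0.59 ± 0.15, adjusted p = 0.0225, lost without any 1 of the NRASG12D libraries or NUP98-NSD1+NRASG12D replicate 3 and with each of the 3 scalings), and Rragb, a Rag GTPase at 0.179 to 1.93 FPKM across the 9 libraries (-0.81 ± 0.20, adjusted p = 0.0208, lost without NRASG12D replicate 2 or 3 or NUP98-NSD1+NRASG12D replicate 3). Rragc, another Rag GTPase, was lower in NUP98-NSD1 (-0.64 ± 0.12, adjusted p = 0.00539).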

How the data were processed

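Gene tables with the deposited FPKM of each of the 9 libraries were used. The authors sequenced paired-end reads of 50 bp, and the submitters' processing notes name STAR 2.7.2a, Cufflinks 2.2.1 and GRCm38.p6. The annotation given in the methods is GENCODE, and their group tests used DESeq2 on fragment counts, which were not used here. FPKM carry no depth, but the spacing of low values gave an estimated 22400000 to 35400000 fragments a library, with 83.3 to 87.9% of low values within 0.1 of a whole fragment. Each table had 55330 lines, and lines with the same identifier were summed to 55274 genes. The 13493 genes that reached 1 FPKM in 3 or more libraries were fitted on log2(FPKM + 1) with limma 3.58.1 in R 4.3.3 (lmFit, eBayes with trend, two-sided), each pair of groups on its 6 libraries, with Benjamini-Hochberg adjustment over all genes tested and a threshold of 0.05. Fold changes on this scale understate those of low genes. With 3 libraries against 3, an exact permutation test of a single gene cannot go below p = 0.1, so it was not used. The script was tested on simulated data. Groups and replicates were taken from sample titles. Alternatives were another pseudocount, no filter or a stricter filter, 3 scalings, a single fit of all libraries, array weights, the replicate number as a block and leaving out each library. Values in every library were given for members called in at least 2 comparisons or with an absolute log2 fold change of at least 1.5, and up to 3 genes of each pathway list were named by size of change; exceptions are stated. Promoter windows came from RefSeq (GRCm38.p6). The members, lists and tests were chosen with earlier results of these data known. One hydrolase of the second list was not analysed here.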

Additional observations from a re-analysis of the deposited data

How the results depend on the processing

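The count of 20 genes called between NUP98-NSD1 and NRASG12D became 10 with no filter on low values and 4 in a single fit of all 9 libraries, and ranged from 11 to 20 when libraries were left out. The count of 18 between NUP98-NSD1+NRASG12D and NRASG12D stayed within 1.5 times under every alternative (12 to 24, and 14 to 24 when libraries were left out). The count of 5 between the NUP98-NSD1 groups became 0 with no filter, 2 with median-ratio scaling, 1 with quantile normalization, 3 with rescaling to an equal sum, 14 in the single fit and 20 with array weights, and ranged from 0 to 22 when libraries were left out. The 22 genes were those called without NUP98-NSD1+NRASG12D replicate 1. The cause was not tested.

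The correlations of deviations between same-numbered libraries lay between -0.18 and 0.16. With so few libraries, these values cannot show whether same-numbered libraries shared a mouse or transduction. With replicate number as a block, 18, 19 and 1 genes were called in the 3 comparisons in the order above.

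Scaling moved the median of all genes from 0.27 to 0.01, -0.07 and 0.14 (median-ratio, quantile and equal sum) between NUP98-NSD1 and NRASG12D, so small rises there are relative to it. In that comparison Atp6v1a turned to -0.014 and -0.0200 and Lamtor1 to -0.0078 and -0.0041 with median-ratio scaling and quantile normalization. Of 1477 values for single genes under alternatives, 4 turned direction, 213 lost and 36 gained a call, and 1224 kept both. The estimated depth limits genes under about 0.1 FPKM, such as Tfec in NRASG12D.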
